A study of Mus musculus with 12 samples.

Results

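The genes of platelet-derived growth factor (PDGF) signalling are described here in 4 cell populations sorted from the mouse aorta and its perivascular fat. They are the 4 ligand genes Pdgfa, Pdgfb, Pdgfc and Pdgfd and the 2 receptor genes Pdgfra and Pdgfrb, taken by symbol from the deposited count table, so 6 of its 33352 genes. All 6 were among the 19016 genes that passed the filter on low counts, Pdgfb only through the populations where it was high. The labels name a Progenitor and an Intermediate cell population and SMC1 and SMC2, which are populations of smooth muscle cells (SMC), each with 3 libraries, 12 in all. Every library came from 13-week-old male wild-type mice of the outbred CD-1 strain, with no treatment named, and the tissue digested for each was aorta together with perivascular adipose tissue. RNA carrying a poly(A) tail was amplified with a SMART-Seq kit for very small inputs, which does not mark the strand of a read. The sources used here do not give the antibodies and gates of the sort. Whether a PDGF receptor on the cell surface was used for sorting is therefore unknown, and a receptor difference set by a gate cannot be told apart from any other. The labels do not say whether a library is 1 animal or a pool.

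PDGF ligands are secreted dimers, and their receptors are tyrosine kinases that pair when a ligand binds. The receptor encoded by Pdgfra binds the A, B and C chains, and the receptor encoded by Pdgfrb binds the B and D chains. The A and B chains are cut inside the cell by furin-like proteases, whereas the C and D chains leave the cell in a latent form and are activated by proteases such as the plasminogen activators. In adult tissues Pdgfra is a widely used marker of fibroblasts and of adipocyte progenitors, and Pdgfrb is carried by smooth muscle cells, pericytes and many fibroblasts. Endothelial PDGF-B that recruits pericytes through the Pdgfrb receptor is the textbook case of paracrine signalling in the vessel wall.

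Total counts ran from 13258631 to 22647175 per library. Levels are given as CPM, read counts scaled to library size with the TMM method, and a change is the log2 ratio of 2 populations with its standard error (SE). Calls rest on the quasi-likelihood test of edgeR with a Benjamini-Hochberg adjusted p under 0.05, taken over all 19016 genes. The population labels were set against marker lists. The summed smooth muscle markers, which include Acta2 and Myh11, ran from 18478 to 33777 CPM in the SMC libraries and from 198 to 474 CPM in the others. The summed fibroblast markers, which include Col1a1 and Dcn, ran from 71016 to 86319 CPM in Progenitor and Intermediate and from 981 to 7838 CPM in SMC1 and SMC2. The summed macrophage and leukocyte markers stood at 617 CPM in SMC1 replicate 1 and at 135 and 148 CPM in the other SMC1 libraries.

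In GRCm38 (GENCODE M21) Pdgfra lies at chr5:75152292-75198215 on the plus strand, Pdgfc at chr3:81036416-81214040 (plus), Pdgfd at chr9:6168584-6378850 (plus), Pdgfa at chr5:138976014-138997370 (minus) and Pdgfb at chr15:79995874-80014977 (minus). Of the Pdgfra exon bases, 6.50% overlap other annotated genes. RefSeq promoter windows for GRCm38.p6 matched 4 of the 6 genes, and both windows of Pdgfa overlap annotated exons and are not printed. The 250 bases before the RefSeq start are shown for Pdgfra, Pdgfc and Pdgfd, the matched genes whose windows hold no annotated exon. The RefSeq starts of Pdgfra and Pdgfd lie upstream of the GENCODE positions given above, and that of Pdgfc matches. All of these genes were lower in SMC2 than in SMC1, which was not how they were chosen. Their SMC1 means were 26.0, 26.5 and 348 CPM, in that order. Each window holds no annotated exon and is written 5′ to 3′ on the plus strand. Capitals mark a CArG box in Pdgfc and a TATAAA match in Pdgfd, and Pdgfra has no capitals because none of the 4 motifs searched was found in its window.
Pdgfra chr5:75152001-75152250: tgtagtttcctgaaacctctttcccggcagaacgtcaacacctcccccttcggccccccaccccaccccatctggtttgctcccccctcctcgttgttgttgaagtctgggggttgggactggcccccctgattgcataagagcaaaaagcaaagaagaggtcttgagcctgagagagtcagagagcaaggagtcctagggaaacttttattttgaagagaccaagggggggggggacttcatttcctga
Pdgfc chr3:81036166-81036415: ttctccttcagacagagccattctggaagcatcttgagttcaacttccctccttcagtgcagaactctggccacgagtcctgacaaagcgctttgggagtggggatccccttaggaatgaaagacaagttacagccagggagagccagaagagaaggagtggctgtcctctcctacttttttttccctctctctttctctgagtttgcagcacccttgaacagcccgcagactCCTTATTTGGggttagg
Pdgfd chr9:6168236-6168485: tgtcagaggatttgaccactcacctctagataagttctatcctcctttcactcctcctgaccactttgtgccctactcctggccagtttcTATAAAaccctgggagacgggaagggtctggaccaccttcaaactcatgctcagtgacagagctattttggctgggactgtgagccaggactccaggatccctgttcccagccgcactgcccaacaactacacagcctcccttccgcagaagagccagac
Both strands were searched for the TATA box as TATAAA. The GC box was searched as GGGCGG, the CCAAT box by the letters of its name, and the CArG box, which serum response factor binds, by its usual consensus. The CArG box of Pdgfc begins 17 bases before its RefSeq start, and 1.47% of 32851 windows of the same length hold such a box. The TATAAA of Pdgfd begins 160 bases before its RefSeq start, and 12.4% of windows hold those letters. The GC box was present in 32.7% and the CCAAT box in 33.8% of windows, and neither was found in the printed ones. GC content was 54.4% for Pdgfra, 50.8% for Pdgfc and 53.6% for Pdgfd. These matches describe letters in a window and were not tested as binding sites.

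The receptor gene Pdgfra separated the populations most widely of the 6 genes. Its level was 814, 582 and 1131 CPM in Progenitor replicates 1, 2 and 3, and 769.8, 795 and 891 CPM in Intermediate. In SMC1 it was 27.6, 23.8 and 26.4 CPM, and in SMC2 5.80, 7.51 and 8.28 CPM. Progenitor and Intermediate overlapped, and every library of SMC1 lay below them and above every library of SMC2. The log2 change of Intermediate minus Progenitor was −0.04 (95% interval −0.47 to 0.39, adjusted p = 0.913), which passed no test and turned to 0.24 without Progenitor replicate 3 and to 0.01 without Intermediate replicate 1. Pdgfra fell by 5.02 on the log2 scale from Progenitor to SMC1 (SE 0.25, adjusted p = 1.94e-12) and by 6.87 from Progenitor to SMC2 (SE 0.27, adjusted p = 9.54e-14). Between the SMC populations it was lower in SMC2 by a log2 change of −1.85 (SE 0.23, adjusted p = 1.68e-06), 3.61-fold. In the test of any difference among the 4 populations Pdgfra ranked 45 of the 19016 genes by p (adjusted p = 7.24e-15).

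The fibroblast markers moved with Pdgfra. All 7 markers of the list (Col1a1, Col3a1, Dcn, Lum, Dpt, Pi16 and Cd34) were lower in SMC1 and in SMC2 than in Progenitor and than in Intermediate. In these comparisons 21.7% to 23.2% of all tested genes were called lower. Relative to Intermediate, Pdgfra stood at 3.17% in SMC1 and 0.879% in SMC2, and the summed markers at 8.92% and 2.08%. None of the first 4 markers was at 0 in any library. Pdgfra per 1000 CPM of the summed markers was 10.2 ± 2.75 CPM in Progenitor and 10.8 ± 1.55 in Intermediate, compared with 3.86 ± 0.385 in SMC1 and 4.76 ± 0.997 in SMC2 (SD, n = 3). The part that fibroblasts in the SMC sorts had in their Pdgfra reads was not tested. In bulk libraries, fewer cells of a type and less RNA per cell cannot be told apart.

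Pdgfrb was abundant in all 4 populations and varied least. Its level was 238, 215 and 459.8 CPM in Progenitor replicates 1, 2 and 3, and 662, 624 and 621 CPM in Intermediate. In SMC1 it was 449, 332 and 548 CPM, and in SMC2 673, 483 and 468 CPM. Every Intermediate library lay above every Progenitor and SMC1 library, whereas SMC1 and SMC2 overlapped and Progenitor replicate 3 reached into the SMC1 range. Pdgfrb rose by 1.06 on the log2 scale from Progenitor to Intermediate (SE 0.26, adjusted p = 0.00515), 2.09-fold. It was also called higher in SMC2 than in Progenitor (log2 change 0.83, SE 0.25, adjusted p = 0.0113). That call was lost without Progenitor replicate 1 (0.68, adjusted p = 0.0594), Progenitor replicate 2 (0.63, adjusted p = 0.0708) or SMC2 replicate 1 (0.56, adjusted p = 0.0932), in a range over 18 alternative fits of 1.81e-04 to 0.0932. From highest to lowest the means ran Intermediate, SMC2, SMC1 and Progenitor, and no neighbours in that order passed the test. The change of SMC2 minus Intermediate was −0.23 (95% interval −0.76 to 0.30), that of SMC2 minus SMC1 0.29 (−0.24 to 0.82) and that of SMC1 minus Progenitor 0.54 (0.01 to 1.07, adjusted p = 0.0846). The last was called without Progenitor replicate 3 (0.98, adjusted p = 0.00174) and without SMC1 replicate 2 (0.66, adjusted p = 0.0474), with a range of 0.00174 to 0.385 over its alternatives. For SMC1 minus Intermediate the change was −0.52 (adjusted p = 0.108) although the libraries did not overlap, and it was called in a fit of those 6 libraries alone (−0.54, adjusted p = 0.0289) and without Progenitor replicate 3 (adjusted p = 0.047), with a range of 0.0289 to 0.38.

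**Figure D1:**
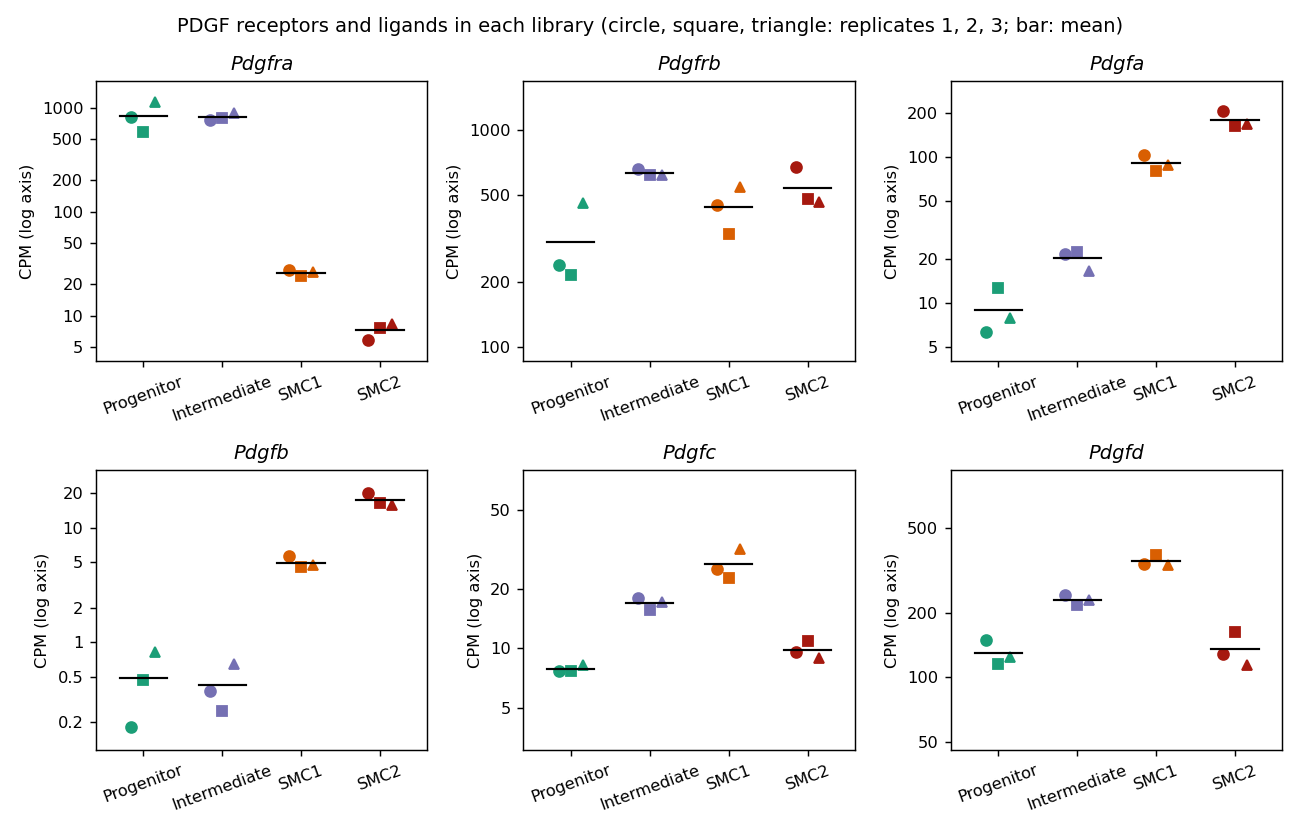
Level of each PDGF receptor and ligand gene in the 12 libraries, in CPM on log axes that differ between panels. Circles, squares and triangles are replicates 1, 2 and 3 and bars are means over n = 3; Pdgfra spans 5.80 to 1131 CPM, and Pdgfrb 215 to 673 CPM.

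Levels of different genes are compared here per kilobase (kb) of annotated exon, as CPM per kb. Pdgfra made up 60.7 ± 4.003% of the summed receptor level in Progenitor and 41.3 ± 2.56% in Intermediate (SD, n = 3). In SMC1 its share was 3.20 ± 0.604%, and in SMC2 it was 0.756 ± 0.256%. The receptor sum itself was 139.6 ± 51.4 CPM per kb in Progenitor and 198 ± 4.54 in Intermediate, compared with 83.5 ± 19.8 in SMC1 and 99.5 ± 20.8 in SMC2. The 2 SMC populations thus carried receptor transcripts that were almost entirely Pdgfrb, and the Progenitor and Intermediate populations carried both. Which receptor leads in Intermediate depends on the gene length used, since with the longest annotated transcript as length its Pdgfra share was 50.5%. Set among all tested genes per kb, Pdgfrb stood above 95.4% to 98.1% of them in the 4 populations, and Pdgfra above 97.1% in Intermediate but above 30.9% in SMC2.

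Pdgfa, the ligand chain that acts through the Pdgfra receptor, was lowest where Pdgfra was high. Its level was 6.38, 12.7 and 7.83 CPM in Progenitor replicates 1, 2 and 3, and 21.8, 22.3 and 16.6 CPM in Intermediate. It reached 103.4, 80.5 and 88.2 CPM in SMC1 and 207, 163 and 168 CPM in SMC2. The 4 populations formed 4 separate ranges. Pdgfa rose at each step of that order, by 1.18 on the log2 scale from Progenitor to Intermediate (SE 0.22, adjusted p = 5.20e-04), by 2.16 from Intermediate to SMC1 (SE 0.21, adjusted p = 4.78e-08) and by 0.98 from SMC1 to SMC2 (SE 0.20, adjusted p = 6.61e-04). From Progenitor to SMC2 the change was 4.33 (SE 0.24), 20.1-fold. Of the exon bases of Pdgfa, 26.1% overlap the antisense gene 6330403L08Rik, and reads of the pair cannot be told apart without strand. That gene had means of 0.910 CPM in Progenitor and 1.40 in Intermediate, compared with 5.40 in SMC1 and 8.92 in SMC2, far under Pdgfa in each. How reads in the shared bases were counted is not known, so these means set no bound on its part in the Pdgfa counts.

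Pdgfb, the chain that binds both receptors, was close to the limit of detection in Progenitor and Intermediate. It was not tested in a fit of those 2 populations alone, so it passed the filter through its SMC levels. Its changes against them are therefore given as a description. It had 4, 7 and 13 counts in Progenitor replicates 1, 2 and 3 (0.182, 0.467 and 0.821 CPM) and 6, 4 and 10 counts in Intermediate (0.373, 0.251 and 0.639 CPM). Its level was 5.70, 4.52 and 4.69 CPM in SMC1 and 20.1, 16.3 and 15.7 CPM in SMC2. SMC1 and SMC2 were thus separate from each other and from the 2 low populations, which overlapped. Pdgfb was 3.50-fold higher in SMC2 than in SMC1 (log2 change 1.81, SE 0.28, adjusted p = 3.78e-05). Against Progenitor the change was 3.39 in SMC1 (SE 0.37, adjusted p = 1.83e-07) and 5.20 in SMC2 (SE 0.37, adjusted p = 2.66e-10). Between Intermediate and Progenitor no difference was detectable at these counts (−0.15, 95% interval −1.18 to 0.88, adjusted p = 0.863), and the sign turned without Progenitor replicate 3 (0.47) or Intermediate replicate 2 (0.13).

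Endothelial cells are a classical source of PDGF-B, so the endothelial markers are given beside Pdgfb. The 10 markers summed to 186 to 254 CPM in Progenitor and 103 to 156 in Intermediate, compared with 384 to 540.1 in SMC1 and 459 to 552 in SMC2. The first 4 markers of the list, the adhesion and receptor genes Pecam1, Cdh5, Tie1 and Tek, summed to 155 to 192 CPM in Progenitor and 70.8 to 91.996 in Intermediate, compared with 249 to 304 in SMC1 and 35.7 to 94.1 in SMC2. No library had any of these 4 at 0. The 2 sums thus order SMC1 and SMC2 differently: every SMC2 library lay below every SMC1 library in the 4-gene sum, whereas the 10-gene sums overlapped. Between SMC1 and SMC2, 1 of the 10 markers rose and 5 fell, against 16.5% of all tested genes called higher and 18.1% lower. The one that rose was Esam, the gene of an adhesion molecule, at 79.1 ± 26.3 CPM in SMC1 and 390.4 ± 93.0 in SMC2. In Progenitor the 4-gene sum was mostly Tek, at 113 ± 17.2 CPM, which was 28.7 ± 10.6 in SMC1, while Cdh5 was at 2.92 ± 1.79 and Tie1 at 8.83 ± 4.11 in Progenitor, so this sum is no endothelial-specific value. Esam and Tek were singled out after their values were seen. The part of endothelial cells in the Pdgfb levels was not tested. Platelets, which store PDGF, had 5 listed markers in the table, summing to at most 22.8 CPM in any library.

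**Figure D2:**
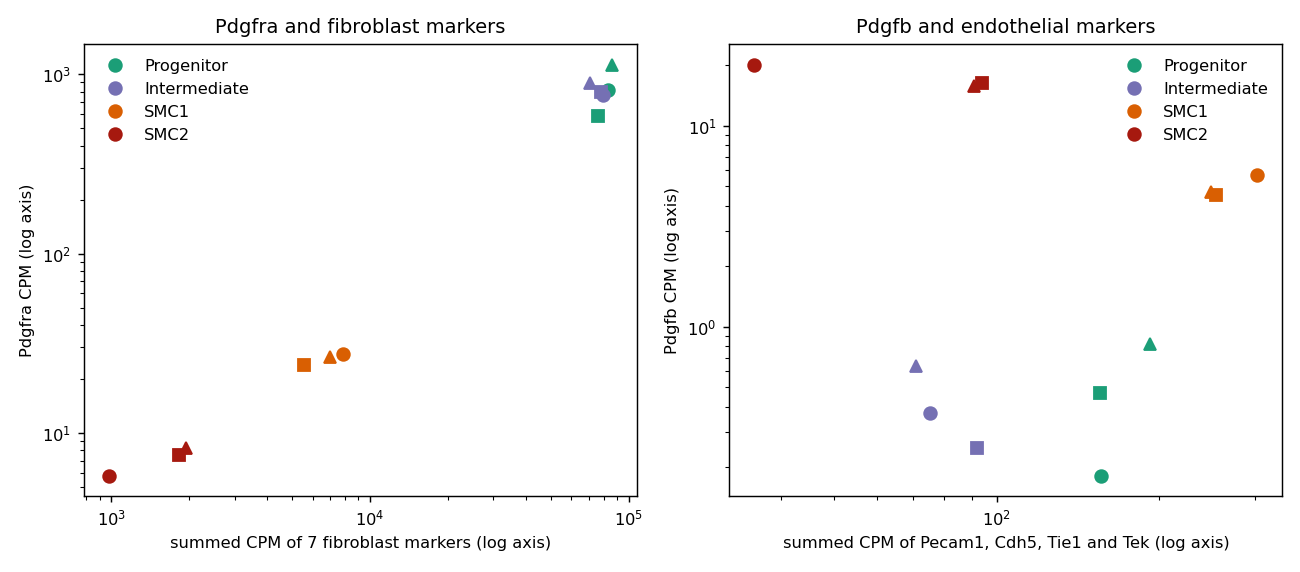
Pdgfra against the summed CPM of 7 fibroblast markers (left) and Pdgfb against the summed CPM of Pecam1, Cdh5, Tie1 and Tek (right), both on log axes in CPM, with 1 point per library and circles, squares and triangles for replicates 1, 2 and 3. The SMC1 and SMC2 libraries are low on both axes at the left, and at the right the SMC2 libraries have the highest Pdgfb with marker sums of 35.7 to 94.1 CPM. The sum of all 10 endothelial markers, not plotted, differs from this. It was 459 to 552 CPM in SMC2, 384 to 540.1 in SMC1, and at most 254 in Progenitor and 156 in Intermediate.

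Pdgfc and Pdgfd, the ligands that need activation outside the cell, shared another order, with SMC1 highest and Intermediate next. Pdgfc was at 7.70, 7.67 and 8.27 CPM in Progenitor replicates 1, 2 and 3, 17.9, 15.6 and 17.2 CPM in Intermediate, 24.99, 22.7 and 31.8 CPM in SMC1, and 9.62, 10.9 and 8.94 CPM in SMC2. Its 4 ranges did not overlap. Pdgfc rose from Progenitor to Intermediate by 1.10 on the log2 scale (SE 0.18, adjusted p = 1.28e-04) and from Intermediate to SMC1 by 0.65 (SE 0.17, adjusted p = 0.00428), and it fell by 1.43 from SMC1 to SMC2 (SE 0.17, adjusted p = 1.55e-06). The change of SMC2 minus Progenitor was 0.32 (95% interval −0.05 to 0.69, adjusted p = 0.161) and was not called. Of its exon bases, 2.89% overlap the unnamed antisense gene model Gm16000.

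Pdgfd, which acts through the Pdgfrb receptor, was the most abundant ligand gene in Progenitor, Intermediate and SMC1. Its level was 149, 116 and 124 CPM in Progenitor replicates 1, 2 and 3 and 241, 217 and 229 CPM in Intermediate. It was 338, 373 and 333 CPM in SMC1 and 128, 163 and 114 CPM in SMC2. Progenitor and SMC2 overlapped, and Intermediate and SMC1 each stood apart. Pdgfd rose by 0.82 on the log2 scale from Progenitor to Intermediate (SE 0.17, adjusted p = 0.00141) and by 0.60 from Intermediate to SMC1 (SE 0.17, adjusted p = 0.0065), and fell by 1.36 from SMC1 to SMC2 (SE 0.17, adjusted p = 2.33e-06). Between SMC2 and Progenitor the change was 0.06 (95% interval −0.29 to 0.41, adjusted p = 0.806), and its sign turned in 7 of 18 alternative fits, to −0.17 at the lowest without SMC2 replicate 2.

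Per kb of exon, the ligand mixture shifted along with these levels. Pdgfd made up 89.8 ± 3.20% of the summed ligand level in Progenitor and 88.0 ± 1.07% in Intermediate, compared with 75.6 ± 3.06% in SMC1 and 40.2 ± 5.88% in SMC2 (SD, n = 3). Pdgfa made up 6.47 ± 2.88%, 7.87 ± 1.257%, 19.96 ± 2.67% and 54.0 ± 5.68% in the same order. Pdgfa was the larger of the pair in SMC2 in all 3 libraries, where its share ran from 47.6% to 58.3% and that of Pdgfd from 35.8% to 46.9%. In SMC2 replicate 2 the shares were nearly equal, at 47.6% for Pdgfa and 46.9% for Pdgfd. Pdgfb contributed 3.92 ± 0.341% in SMC2 and under 1% elsewhere, and Pdgfc 1.81 ± 0.140% in SMC2 against 3.42% to 4.03% elsewhere. The ligand sum was 45.6 ± 4.58 CPM per kb in Progenitor and 82.5 ± 4.20 in Intermediate, compared with 146 ± 4.26 in SMC1 and 106 ± 9.53 in SMC2. These shares carry no test, and an RNA share gives no level of secreted protein. The Pdgfa share also depends on how reads in the bases shared with its antisense gene were counted, which is not known.

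**Figure D3:**
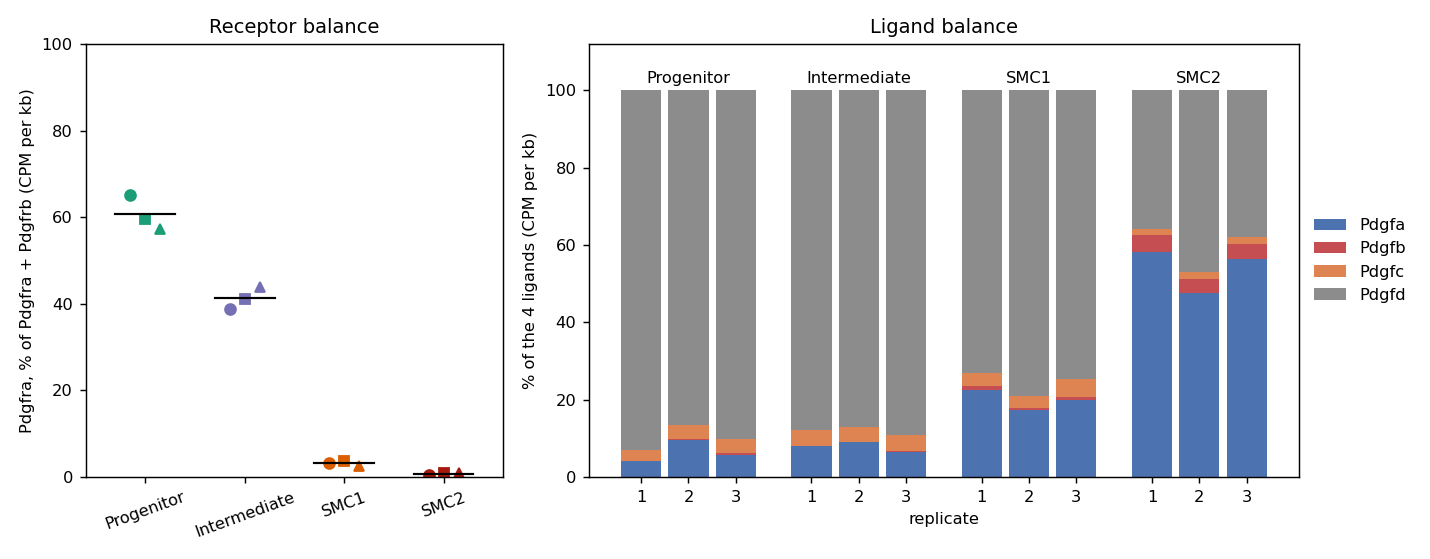
Shares of the per-kb receptor level (Pdgfra against Pdgfrb) and of the per-kb ligand level in each population, in percent, with a point (left, bar at the mean of n = 3) or a stacked column (right) per library. The Pdgfra share is 60.7% in Progenitor and 0.756% in SMC2, and the Pdgfa share of the ligands is 6.47% in Progenitor and 54.0% in SMC2.

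The counts of PDGF genes called are given against all tested genes, and the 6 comparisons reuse the same 12 libraries. All 6 genes differed somewhere among the 4 populations, where 66.2% of all tested genes did. Between Intermediate and Progenitor 4 of 6 were higher and none lower, against 22.2% of all genes called, 12.7% higher and 9.46% lower. Of all calls 57.3% were higher, and this balance turned to 39.2% with upper-quartile scaling, to 44.5% in a fit of those populations alone, and to 45.3% to 46.8% without any single SMC1 or SMC2 library (replicate 1, 2 or 3 of either). Lower calls were also the majority, by a smaller shift, with median-of-ratios scaling and without the filter on low counts. The median log2 change was 0.94 over the 6 genes and 0.08 over all genes. The genes that rose were Pdgfa, Pdgfc, Pdgfd and Pdgfrb, so that the receptor Pdgfra and the barely detected Pdgfb were the ones not called.

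Between SMC2 and SMC1, Pdgfa and Pdgfb were higher, Pdgfc, Pdgfd and Pdgfra were lower, and Pdgfrb was not called, so 5 of 6 were called against 34.6% of all genes (16.5% higher and 18.1% lower). The median size of the log2 change, without its sign, was 1.40 over the 6 genes and 0.54 over all. From Progenitor to SMC1 4 rose (the 4 ligands) and 1 fell, against 48.3% of all genes called (25.3% higher and 23.1% lower), and 52.3% of those calls were higher, or 41.3% with upper-quartile scaling. From Progenitor to SMC2 3 rose (Pdgfa, Pdgfb and Pdgfrb) and 1 fell, against 44.8% (23.1% higher and 21.7% lower). From Intermediate to SMC1 4 rose (the 4 ligands) and 1 fell, against 41.6% (19.7% higher and 21.9% lower). From Intermediate to SMC2 2 rose (Pdgfa and Pdgfb) and 3 fell, against 44.6% (21.4% higher and 23.2% lower). Since so many genes of the table were called, a count of 4 or 5 among 6 is given as a description and not as something particular to the PDGF genes. Over the 6 comparisons 28 of 36 changes were called, against the 22.2% to 48.3% of all genes called in single comparisons.

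**Figure D4:**
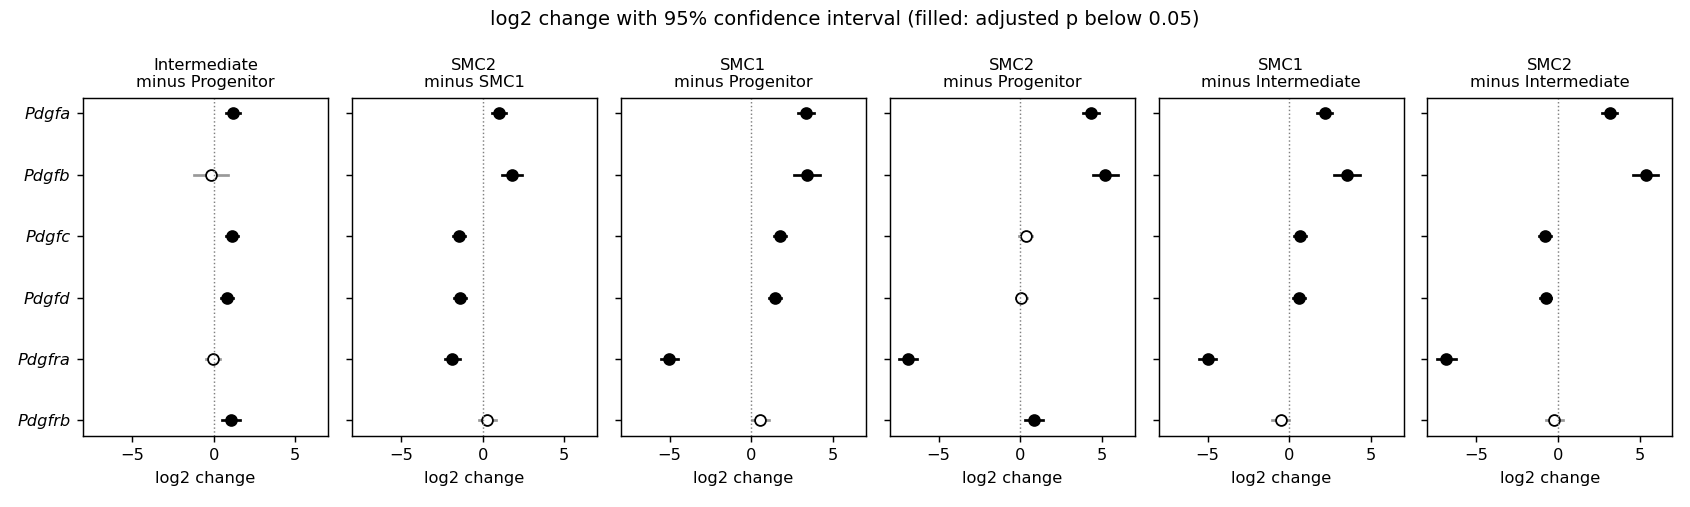
Log2 change of each PDGF gene in the 6 comparisons, with 95% intervals from edgeR. Filled points were called at an adjusted p below 0.05 and open points were not. Pdgfra has the widest span, from −6.87 (SMC2 minus Progenitor) to −0.04 (Intermediate minus Progenitor).

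Markers of other cell types moved with some of these comparisons. The summed adipocyte markers ran from 1079 to 1255 CPM in SMC2 and reached at most 51.1 CPM elsewhere. All 6 were higher in SMC2 than in SMC1, against 16.5% of all tested genes. The first 4 of that list (Adipoq, Plin1, Cidec and Lep) summed to 196 to 240 CPM in SMC2 and at most 9.66 CPM elsewhere. Most of the SMC2 sum thus came from Cfd and Pparg. The Schwann cell markers summed to 96.5 to 194 CPM in SMC2 and to at most 52.1 CPM elsewhere. The mesothelial markers summed to 171 to 409 CPM in Intermediate and to at most 69.2 CPM elsewhere. Of 8, 7 were higher and 1 was lower in Intermediate than in Progenitor, against 12.7% and 9.46% of all tested genes. The 11 pericyte markers summed to 3123 to 3816 CPM in SMC1, 1959.99 to 2515 in SMC2, 1137 to 1661 in Progenitor and 1024 to 1234 in Intermediate. The Progenitor sum was mostly Steap4, singled out after its values were seen, at 1117 ± 306 CPM. The first 4 of the list (Cspg4, Rgs5, Abcc9 and Kcnj8) summed to 2271 to 2904 CPM in SMC1 and 761 to 978 in SMC2, and to 160.05 to 251 in Progenitor, below the 533 to 557 of Intermediate. Of the first 4 genes of each list, at least 1 Schwann cell gene was at 0 in 2 Progenitor and 2 Intermediate libraries, and an adipocyte gene in 1 SMC1 library. The part that such cells had in the ligand levels of SMC2 and Intermediate was not tested.

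The other genes of the pathway are given by lists. For comparison, the share of all tested genes called was 22.2% from Progenitor to Intermediate and 34.6% from SMC1 to SMC2. It was 48.3% and 44.8% from Progenitor to SMC1 and SMC2, and 41.6% and 44.6% from Intermediate to SMC1 and SMC2. Some list counts lay near these shares, such as 42.9% of proteases and 44% of effectors from Intermediate to SMC1. Others lay above or below, so the counts are given as a description. The median log2 change of all tested genes was 0.08 from Progenitor to Intermediate and near 0 (−0.0028) from SMC1 to SMC2. In the test of any difference among the 4 populations, 5 of 7 ligand-processing proteases, 10 of 10 extracellular partners, 21 of 25 effectors, 13 of 14 negative regulators, 14 of 15 early genes and 12 of 14 related receptors and ligands were called, against 66.2% of all genes.

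Of the proteases that process PDGF, Pcsk6, Plat and Plau were highest in Progenitor, whereas the rest of the list had their highest means in Intermediate or SMC1. Of 7 proteases, 0 rose and 3 fell from Progenitor to Intermediate, and 0 rose and 4 fell from Progenitor to SMC2. From Progenitor to SMC1 2 rose and 3 fell, and from SMC1 to SMC2 1 rose and 2 fell. Against Intermediate, 1 rose and 2 fell in SMC1 and 1 rose and 3 fell in SMC2. The list median was 0.25 from Progenitor to Intermediate, opposite in sign to its 3 calls, and −0.11 from SMC1 to SMC2. The first count of 3 was 5 without Progenitor replicate 3. Pcsk6, a furin-like convertase, was at 388 ± 61.3 CPM in Progenitor and 121 ± 14.8 in Intermediate, compared with 10.5 ± 3.11 in SMC1 and 10.3 ± 4.43 in SMC2 (SD, n = 3). Plat, the tissue plasminogen activator, which can activate the C chain, was at 642 ± 31.2 CPM in Progenitor and 371 ± 70.1 in Intermediate, compared with 71.9 ± 7.07 in SMC1 and 93.3 ± 19.4 in SMC2. Plau, the urokinase activator, which can activate the D chain, was at 12.8 ± 4.72 CPM in Progenitor and at 2.48 ± 0.350 or less in the other populations. Thus Plat and Plau were lower in SMC1, where Pdgfc and Pdgfd were highest, than in Progenitor, with log2 changes of −3.16 (SE 0.20) for Plat and −4.11 (SE 0.34) for Plau, both called. Pcsk5, another convertase, was lower in SMC2 than in SMC1 by a log2 change of −2.54 (SE 0.24, adjusted p = 9.48e-08).

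Among 10 extracellular partners and co-receptors, 3 rose and 7 fell from Progenitor to SMC1, 2 rose and 6 fell from Progenitor to SMC2, and 1 rose and 6 fell from SMC1 to SMC2. Intermediate against Progenitor had 3 higher and 1 lower. Against Intermediate, 2 rose and 5 fell in SMC1 and 2 rose and 6 fell in SMC2. The list median was 0.22 from Progenitor to Intermediate and −0.81 from SMC1 to SMC2. Cspg4, the NG2 proteoglycan of pericytes and smooth muscle, which binds PDGF-A, was at 579.98 ± 137 CPM in SMC1 and 248 ± 57.6 in SMC2, and at 13.3 ± 4.76 in Progenitor and 13.5 ± 1.39 in Intermediate. Pdgfrl, a gene named for its likeness to the PDGF receptors, was at 274 ± 52.8 CPM in Progenitor and 574 ± 152 in Intermediate, compared with 29.6 ± 6.18 in SMC1 and 11.6 ± 3.39 in SMC2. Nrp1, a co-receptor for several growth factors, was at 366 ± 30.9 CPM in Progenitor and 479 ± 42.3 in Intermediate, and under 100 CPM in the SMC populations. Lrp1, an endocytic receptor that associates with the Pdgfrb receptor, was at 1309 ± 425 CPM in Progenitor and 1635 ± 248 in Intermediate, compared with 516 ± 161 in SMC1 and 116 ± 18.8 in SMC2. The last of these fell by 2.15 on the log2 scale from SMC1 to SMC2 (SE 0.27, adjusted p = 2.64e-06), while Pdgfrb itself was not called between them.

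Of 25 adaptors and effectors close to the receptors, 8 rose and 3 fell from Progenitor to Intermediate. That count of 11 is sensitive, since 10 of 18 alternative fits gave 6 or 7, among them those without Progenitor replicate 1 or 2, Intermediate replicate 2, SMC1 replicate 1, 2 or 3, or SMC2 replicate 2. From SMC1 to SMC2 5 rose and 8 fell, and from Progenitor 9 rose and 8 fell to SMC1 and 5 rose and 9 fell to SMC2. Against Intermediate, 3 rose and 8 fell in SMC1 and 4 rose and 11 fell in SMC2. The list median was 0.17 from Progenitor to Intermediate and −0.22 from SMC1 to SMC2. The kinase gene Fyn was at 194 ± 7.28 CPM in Progenitor and 94.0 ± 17.1 in Intermediate, compared with 21.0 ± 5.63 in SMC1 and 32.3 ± 1.34 in SMC2. Pik3cb, a catalytic subunit of phosphoinositide 3-kinase, was at 55.9 ± 5.65 CPM in SMC1, 16.6 ± 2.01 in SMC2, 7.30 ± 1.94 in Intermediate and 4.15 ± 1.41 in Progenitor. Its regulatory partner Pik3r1 was highest in Intermediate, at 310.1 ± 7.36 CPM, and the adaptor Nck1 in Progenitor, at 165 ± 29.9 CPM.

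Of 14 negative regulators of receptor signalling, 1 rose and 1 fell from Progenitor to Intermediate, 2 rose and 6 fell from Progenitor to SMC1, and 6 rose and 2 fell from SMC1 to SMC2. The first count of 2 was 1 without Progenitor replicate 1. From Progenitor to SMC2 3 rose and 6 fell, and against Intermediate 3 rose and 6 fell in SMC1 and 4 rose and 5 fell in SMC2. The list median was 0.07 from Progenitor to Intermediate and 0.11 from SMC1 to SMC2. Spry4, an inhibitor of receptor tyrosine kinase signalling, was at 17.8 ± 3.19 CPM in SMC1 and 90.5 ± 25.8 in SMC2, compared with 32.0 ± 3.20 in Progenitor and 41.3 ± 1.33 in Intermediate. Its relative Spry1 was highest in Intermediate, at 198 ± 15.3 CPM, and lowest in SMC1, at 18.9 ± 1.75 CPM. The phosphatase gene Ptprj was highest in SMC1, at 27.6 ± 3.75 CPM, and Socs1 in Intermediate, at 41.5 ± 3.28 CPM.

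The list of early genes that PDGF can induce holds 15. From SMC1 to SMC2, 11 of the 15 rose and none fell, against 16.5% of all tested genes called higher. From Intermediate to SMC1, 0 rose and 11 fell, against 21.9% called lower, and from Progenitor to SMC1, 0 rose and 8 fell. From Progenitor to Intermediate 2 rose and 4 fell, and from Intermediate to SMC2 2 rose and 2 fell. The list median was 0.81 from SMC1 to SMC2 and 0.23 from Progenitor to Intermediate. Ccl2 and Ccl7, which encode monocyte-attracting chemokines, fell most from Progenitor to SMC1 among the 4 named, to 2.81 ± 0.878 CPM and 2.77 ± 1.18 CPM. Myc, the growth-associated transcription factor, was at 290 ± 17.9 CPM in Progenitor and 90.3 ± 22.3 in Intermediate, compared with 31.1 ± 4.96 in SMC1 and 181 ± 20.9 in SMC2. Cxcl1, a neutrophil chemokine gene, was at 709 ± 107 CPM in Progenitor and 248 ± 86.3 in Intermediate, compared with 29.2 ± 14.5 in SMC1 and 214 ± 22.6 in SMC2. These genes answer many stimuli besides PDGF. The count of 8 between SMC2 and Progenitor (4 higher and 4 lower) was 5 without SMC2 replicate 1.

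Of 14 related class III and vascular endothelial growth factor (VEGF) receptor and ligand genes, 6 rose and 2 fell from Progenitor to Intermediate, and 3 rose and 5 fell from SMC1 to SMC2. The count of 8 was 5 without Intermediate replicate 1. From Progenitor 3 rose and 5 fell to SMC1 and 4 rose and 5 fell to SMC2, and against Intermediate 1 rose and 6 fell in SMC1 and 4 rose and 7 fell in SMC2. The list median was 0.82 from Progenitor to Intermediate and −0.26 from SMC1 to SMC2. Pgf, placental growth factor, was at 209 ± 31.9 CPM in SMC2 and at 34.1 ± 8.04 or less elsewhere. Vegfd was at 199 ± 58.4 CPM in Intermediate and at 33.4 ± 2.59 or less elsewhere, and the lymphatic growth factor gene Vegfc was likewise highest in Intermediate, at 48.97 ± 4.79 CPM. Vegfa was at 146 ± 24.1 CPM in Progenitor and 53.4 ± 3.42 in Intermediate, compared with 21.5 ± 0.852 in SMC1 and 89.5 ± 13.3 in SMC2.

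**Figure D5:**
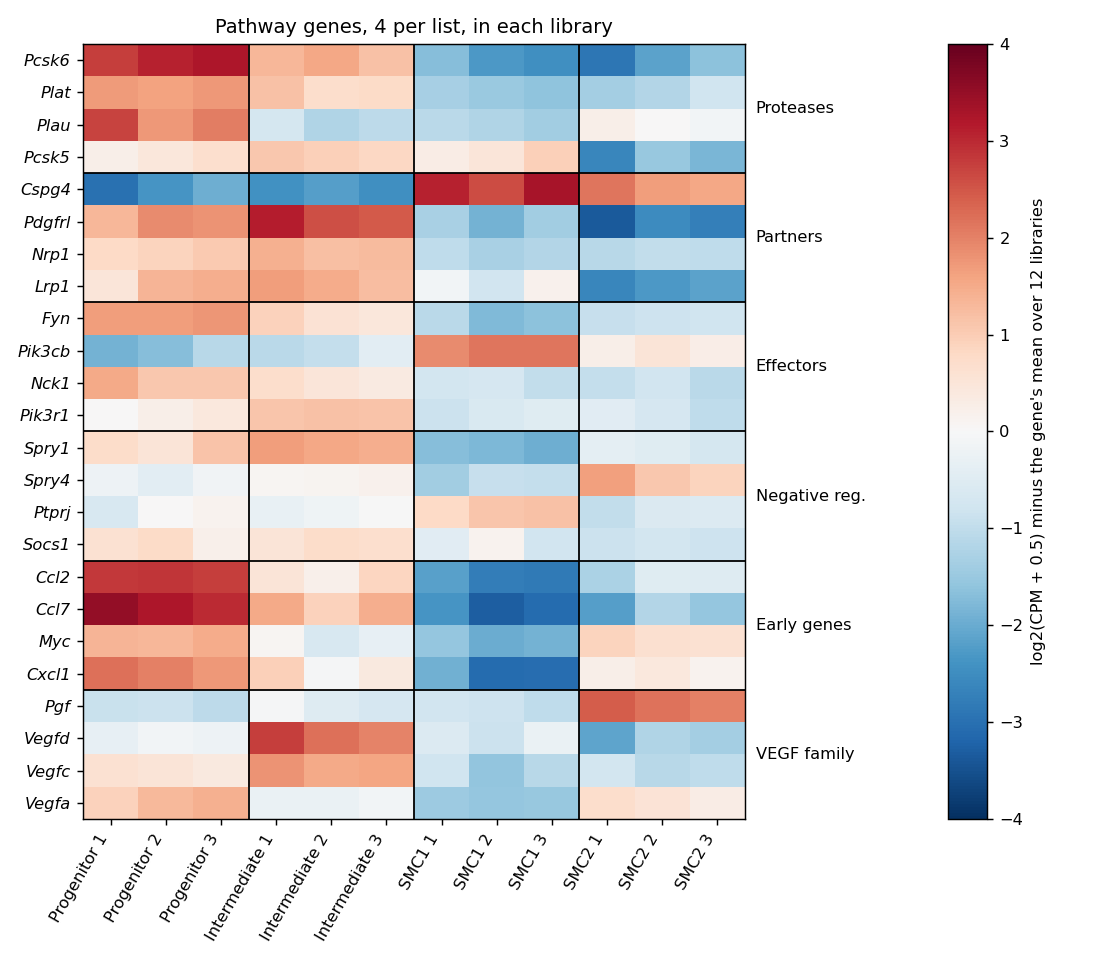
Heat map of the named genes of the PDGF pathway lists and related growth factors by library, as log2(CPM + 0.5) relative to each gene's mean over the 12 libraries. Ccl2, Myc, Cxcl1 and Vegfa are low in SMC1, whereas Cspg4 is high in both SMC populations.

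The genes whose log2 CPM followed each PDGF gene most closely over the 12 libraries were taken from 8994 candidates. The 12 points are 4 populations of 3 libraries, so these correlations mostly restate the order of the populations. Ablim1 (r = 0.997), Abca9, Fam102b, Folh1 and Adam5 were closest to Pdgfra. Slc35f6 (r = 0.946), Pprc1, Abcb10, Klf11 and Fam117b were closest to Pdgfrb, whose lower coefficients went with its narrower range. Cap2 (r = 0.99), Bcar3, Tmod1, Emid1 and Fbxl2 were closest to Pdgfa, and Cap2 rose from 3.71 CPM in Progenitor to 373 CPM in SMC2. Dgkg (r = 0.991), Timp4, Sox6, Sorbs2 and Stac were closest to Pdgfb, with Sorbs2 at 4.16 CPM in Progenitor and 1169 CPM in SMC2. Cttnbp2nl (r = 0.989), Serpinb6b, Btg3, Fhl1 and F2r were closest to Pdgfc, and Spats2l (r = 0.984), Sntg2, Zfp809, Ctnnal1 and Optn to Pdgfd. F2r, the gene of a thrombin receptor, had the same order as Pdgfc, with means of 256 CPM in SMC1, 146 in Intermediate, 51.8 in SMC2 and 43.1 in Progenitor.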

How the data were processed

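Poly(A) RNA of 12 libraries was counted per gene. The authors deposited raw read counts as whole numbers over 33352 genes, and a second table of normalized counts, that is, a signal scaled by the authors' size factor for each library, used here only to check those factors. Per the submitters' processing notes, the build was mm10 and the tools named are DESeq2 1.26.0 and STAR 2.5.2a. The counting program, its annotation and its strand setting are not given in the sources used here. For 12104 genes without a usable deposited symbol, names came from GENCODE M21, which also gave positions and exon lengths.

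The test was run in R 4.3.3 with edgeR 4.0.16 and limma 3.58.1: filterByExpr, TMM scaling, a mean per population over all 12 libraries (8 residual degrees of freedom), the robust quasi-likelihood F test, two-sided, and Benjamini-Hochberg adjustment over 19016 genes at 0.05. DESeq2 1.42.0 was an alternative. Log2 CPM for correlations used a prior count of 2. The code was tested on simulated counts. Amplified fragments are not independent molecules, so counts overstate precision.

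The PDGF genes, pathway lists and marker lists were chosen with earlier results of these data known. Named genes are the 6 PDGF genes, from each pathway list the 4 with the smallest adjusted p in the test of any difference, and the 5 genes most correlated with each PDGF gene, passing over unnamed gene models. The antisense gene beside Pdgfa was named for its overlap, after its values were seen.

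Libraries are numbered 1 to 3 in each population, and nothing says that a number marks an animal, so p-values measure only how far these libraries spread, which may partly be technical. Deviations of same-numbered Intermediate and Progenitor libraries from their group means correlated at 0.171, 0.191 and 0.17, all over 0.1, and were taken as pairs. The main test used population means only, so its SE and p-values for that comparison leave this pairing out. A replicate block was fitted only as an alternative. Replicate libraries differed by more than sampling noise (chi-square per degree of freedom at least 9.31).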

Additional observations from a re-analysis of the deposited data

How the results depend on the processing

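Most PDGF gene changes kept their direction and their side of the threshold under other scaling factors, no filter, DESeq2, a fit of 2 populations alone, the replicate block and the omission of each library. The exceptions are changes that passed no test or belong to Pdgfrb. For Pdgfb, the fit of Intermediate and Progenitor alone gave no value, because the gene was not tested there. Over the omissions of single libraries, the Intermediate minus Progenitor log2 change ran from −0.60 to 0.47 for Pdgfb and from −0.24 to 0.24 for Pdgfra, the SMC2 minus Progenitor change of Pdgfd from −0.17 to 0.17, and the Pdgfrb changes from 0.31 to 0.98 (SMC1 minus Progenitor), 0.56 to 1.25 (SMC2 minus Progenitor) and −0.68 to −0.32 (SMC1 minus Intermediate). Pdgfd between SMC2 and Progenitor was −0.013 with upper-quartile factors and −0.0299 without the filter. Pdgfrb was called between SMC1 and Progenitor without the filter (0.55, adjusted p = 0.048) and between SMC1 and Intermediate in the fit of those populations alone (−0.54). The cause was not tested. The number of genes called between Intermediate and Progenitor was 4218 and, over the omissions of single libraries, ran from 2771 (without Intermediate replicate 2) to 4227.

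Upper-quartile factors moved the share of calls that were higher from 57.3% to 39.2% for Intermediate minus Progenitor and from 52.3% to 41.3% for SMC1 minus Progenitor. The first share was also turned below that of lower calls by a fit of those populations alone (44.5%) and by the omission of any SMC1 or SMC2 library (45.3% to 46.8%), and by a smaller shift with median-of-ratios factors and without the filter. They moved the median log2 change of all genes from 0.08 to −0.08 and from −0.0049 to −0.19 in these comparisons, and from −0.0028 to 0.11 for SMC2 minus SMC1.

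With the replicate block, 4594 genes were called between Intermediate and Progenitor, 6945 between SMC2 and SMC1, 9664 and 8842 between SMC1 or SMC2 and Progenitor, and 8223 and 8839 between SMC1 or SMC2 and Intermediate. No call of a PDGF gene changed under the block. In the 5 comparisons other than Intermediate minus Progenitor, at least 1 same-numbered pair correlated at or under 0.1. The libraries were not taken as pairs there, which does not show that pairing was absent. Every library correlated best with its own number between SMC2 and SMC1, but not in the other 4.

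With the longest annotated transcript as length, the Pdgfra share of receptors was 69.1%, 50.5%, 4.58% and 1.09% in Progenitor, Intermediate, SMC1 and SMC2. The Pdgfd share of ligands was 85.7%, 83.2%, 67.6% and 31.1% and that of Pdgfc 4.67%, 5.46%, 4.59% and 2.01%, in the same order. The Pdgfa share was 11.2% in Intermediate, 26.8% in SMC1 and 62.6% in SMC2, and that of Pdgfb 1.03% in SMC1. The receptor sum was 237.0 CPM per kb in Intermediate, and the ligand sum 87.9, 164 and 139 in Intermediate, SMC1 and SMC2. Depth limits Pdgfb, with 4 to 13 counts in a Progenitor or Intermediate library.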
